A study of Mus musculus with 15 samples.

Results

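Transcripts of 10 regulators known for silencing embryonic and fetal globin genes were followed across 15 Affymetrix mouse arrays of fetal liver erythroid cells. The regulators were Bcl11a, Sox6, Myb, Zbtb7a, Ikzf1, Nr2c1, Nr2c2, Mbd2, Chd4 and Dnmt1, chosen by name but with earlier results of these data known. Each of the 10 had 1 transcript cluster of its own among the 23410 clusters with a gene symbol, of 35556 clusters in the table. The cells were TER119+ cells purified with magnetic beads from livers of FVB/NJ embryos at E13.5, a stage at which the liver is the main site of red cell formation. The groups were Klf3-/- Klf8gt/gt (called DKO here, 4 arrays), Klf3-/- (Klf3KO, 3 arrays), Klf8gt/gt (Klf8gt, 4 arrays) and wild type (WT, 4 arrays). The Klf3 and Klf8 alleles are germline alleles, carried by every cell of the embryo, with gt standing for a gene trap. Litters were matched where possible, per the series design, but neither shared litters nor separate embryos can be read from the labels; p-values therefore cover the spread between these arrays only, part of which may be technical. The 4 genotypes allow single and joint loss to be compared; the question here is whether the regulators of globin switching changed, and how they stood to the level of Hbb-bh1, an embryonic beta-like globin, on each array.

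Red cells of the embryo first express embryonic globins and later adult globins, and this switch is kept by repressors at the globin loci. BCL11A, a zinc finger protein, and ZBTB7A (also called LRF) bind the promoters of fetal globin genes in human erythroid cells and silence them, and SOX6, an HMG-box factor, silences embryonic beta-like globin in mouse definitive erythroid cells together with BCL11A. MYB holds erythroid progenitors in cycle and acts upstream of several of these repressors, and IKZF1 (Ikaros) is a zinc finger factor of blood cells that binds within the beta-globin locus. NR2C1 (TR2) and NR2C2 (TR4) are orphan nuclear receptors that bind direct repeats in embryonic globin promoters. MBD2 reads methylated DNA, CHD4 is the remodelling ATPase of the NuRD corepressor complex, and DNMT1 copies DNA methylation at replication and is recruited by these receptors. KLF3 and KLF8 are Kruppel-like repressors that bind CACCC motifs, the motif also bound by the erythroid activator KLF1.

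The targeted genes do not check the labels. Klf3 signal was 11.06 to 11.73 in DKO and 11.16 to 11.40 in Klf3KO arrays, against 10.21 to 10.30 in Klf8gt and 10.12 to 10.51 in WT arrays, and whether the probes of this cluster lie within the deleted part of the gene is not known here. Klf8 signal was 6.85 to 8.04 in DKO, 8.42 to 8.89 in Klf3KO, 5.27 to 5.48 in Klf8gt and 5.13 to 5.55 in WT arrays, so that in Klf3-intact arrays it lay below the array medians of 6.28 to 6.41. By Y-linked genes and Xist, all 4 WT arrays came from male embryos, against 2 of 4 DKO, 1 of 3 Klf3KO and 2 of 4 Klf8gt arrays, so sex is partly confounded with genotype. DKO replicate 1 and Klf8gt replicate 1 had stood apart from their groups in earlier analyses of these data, and results are given without them where they change. Their mean correlation with their own group was 0.982 each, as was that of DKO replicate 4, against 0.983 to 0.991 for the other arrays. Signals are log2 values as deposited. Adjusted p-values are from limma with Benjamini-Hochberg adjustment over all tested clusters, with a threshold of 0.05. Those of the correlations with Hbb-bh1 are from permutations and are adjusted over the 10 regulators only. The number of arrays limits the precision. For the 10 regulators the median half-width of the 95% interval of a difference was 0.29 on the log2 scale for DKO or Klf8gt against WT and 0.31 for Klf3KO against WT.

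All 10 regulators were transcribed at a level above the array medians on all 15 arrays. On every array the signals of 8 of them also lay above the upper quartile of that same array (8.10 to 8.32 across arrays). Myb and Nr2c1 lay below it on all 15 arrays. Signals of different clusters rest on different probes and are not compared with each other. The regulators differed in how much they varied. Within genotypes, Dnmt1 (SD 0.079), Nr2c2 (SD 0.089) and Mbd2 (SD 0.094) varied little, with 4.71%, 7.54% and 9.29% of all clusters having a smaller SD. Sox6, Zbtb7a, Nr2c1, Ikzf1 and Bcl11a varied more, with an SD of 0.241 for Sox6, 0.224 for Zbtb7a, 0.220 for Nr2c1, 0.218 for Ikzf1 and 0.217 for Bcl11a, against a median of 0.161 over all clusters.

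**Figure D1:**
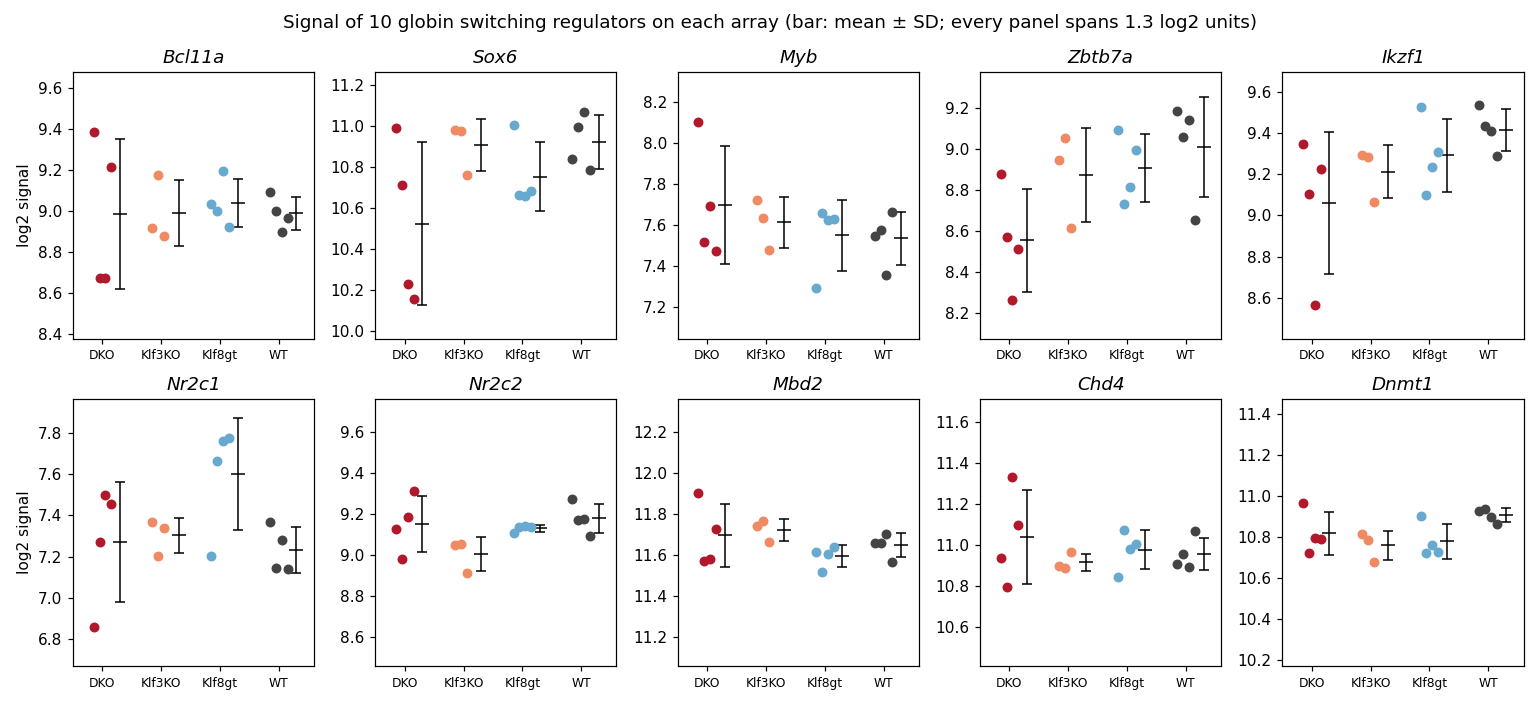
Log2 signal (vertical axis) of each of the 10 regulators on every array, in DKO, Klf3KO, Klf8gt and WT from left to right; points are arrays, bars are the mean ± SD, and every panel spans the same number of log2 units. Zbtb7a, Sox6 and Ikzf1 each have their lowest array in DKO, as do Bcl11a, Nr2c1 and Chd4. For Ikzf1 only DKO replicate 3 lies below all other groups. Nr2c1 has its 3 highest arrays in Klf8gt, and Nr2c2, Mbd2 and Dnmt1 stay within 0.40 log2 units over all 15 arrays.

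The sequences at which these factors are known to act were looked up in the 250 bases before each transcription start, from RefSeq on GRCm38.p6. Windows of 9 of the 10 regulators, all but Mbd2, were searched, 18 in all, since some genes have several starts. CACCC, the core of Kruppel-like factor sites, was searched on both strands, where its reverse complement reads GGGTG. It was present in 12 of the 18 windows and in at least 1 window of each of the 9 genes, against 52.0% of all 32851 windows. TGACCA, an element of the direct repeats bound by NR2C1 and NR2C2 as read in embryonic globin promoters, was searched on both strands too. It was present in 0 of the 18 windows and in 11.4% of all windows. AGGTCA was searched in the same way and was present in 4607 of all 32851 windows. Among the 18 windows it was found only at start sites 2 and 4 of Sox6. The window of the embryonic globin Hbb-y held it as well. None of this says whether a factor binds there. The window of Zbtb7a (chr10:81136021-81136270, plus strand) is printed because Zbtb7a had the smallest p of the 10 in DKO against WT and its window held the largest number of CACCC matches, 5. The windows of the embryonic globins Hbb-y (chr7:103853208-103853457, minus strand) and Hba-x (chr11:32276350-32276599, plus strand) are printed because they hold both CACCC and TGACCA and because these genes moved with Hbb-bh1. Sequences run 5′ to 3′ towards the start site, and capitals mark TGACCA and CACCC, the second in either orientation.
Zbtb7a: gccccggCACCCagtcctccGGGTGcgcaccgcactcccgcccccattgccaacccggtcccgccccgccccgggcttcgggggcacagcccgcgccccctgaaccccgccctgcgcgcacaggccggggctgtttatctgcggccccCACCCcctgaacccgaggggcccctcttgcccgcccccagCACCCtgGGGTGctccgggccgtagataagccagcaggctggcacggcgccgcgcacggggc
Hbb-y: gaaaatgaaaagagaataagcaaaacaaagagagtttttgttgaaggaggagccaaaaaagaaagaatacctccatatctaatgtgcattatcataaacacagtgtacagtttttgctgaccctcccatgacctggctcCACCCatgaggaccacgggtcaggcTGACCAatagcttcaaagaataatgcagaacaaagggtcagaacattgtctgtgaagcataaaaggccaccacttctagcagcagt
Hba-x: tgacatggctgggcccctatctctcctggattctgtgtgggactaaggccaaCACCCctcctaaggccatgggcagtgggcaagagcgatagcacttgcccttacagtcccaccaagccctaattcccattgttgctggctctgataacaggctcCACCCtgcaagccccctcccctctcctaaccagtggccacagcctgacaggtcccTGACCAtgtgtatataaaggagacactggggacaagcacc

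In DKO against WT cells, none of the 10 regulators passed the threshold in limma. Across all clusters 3.3% passed, and 3 regulators were below WT at an unadjusted p under 0.05, against 10.1% of all clusters that were lower and 17.9% that differed in either direction by that rule. These were Zbtb7a, Sox6 and Ikzf1. The median difference of the 10 was -0.02 on the log2 scale, equal to the median of -0.02 over all clusters, with 4 positive and 6 negative differences.

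Zbtb7a, the LRF repressor, had signals of 8.88, 8.57, 8.27 and 8.51 in DKO arrays 1 to 4, against 9.19, 9.06, 9.14 and 8.65 in WT arrays 1 to 4. WT replicate 4 lay among the DKO arrays and DKO replicate 1 above that WT array, so that the groups overlapped. The mean was 8.56 ± 0.25 in DKO and 9.01 ± 0.24 in WT (SD, n = 4 each), a difference of -0.45 ± 0.15 (SE) or a 1.37-fold lower level, with a limma adjusted p of 0.107. An exact two-sided permutation test of the 8 arrays gave p = 0.0571, where the smallest possible is 0.0286; 50 such tests were run over the regulators. The same gene had 8.95, 9.06 and 8.62 in Klf3KO and 9.09, 8.73, 8.82 and 8.99 in Klf8gt arrays, and both ranges overlapped with WT.

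Sox6, the repressor of embryonic beta-like globin, had signals of 10.99, 10.71, 10.23 and 10.16 in DKO arrays, against 10.84, 10.997, 11.07 and 10.78 in WT arrays. DKO replicates 3 and 4 were the lowest of all 15 arrays, whereas DKO replicate 1 lay within the WT range. The difference was -0.40 ± 0.16 (limma adjusted p = 0.185; exact permutation p = 0.114). Klf3KO arrays had 10.98, 10.98 and 10.76, the last just below the WT range, and Klf8gt arrays had 11.003, 10.66, 10.66 and 10.68.

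Ikzf1, which encodes Ikaros, had 9.35, 9.10, 8.56 and 9.23 in DKO arrays, against 9.54, 9.44, 9.41 and 9.29 in WT arrays. Only DKO replicate 1 reached into the WT range, and replicate 3 stood far below the other arrays of all groups. The difference was -0.36 ± 0.14 (limma adjusted p = 0.193; exact permutation p = 0.0571). Lymphoid marker genes lay below the array medians as a group, with mean signals of 5.05 to 5.13 in DKO and 5.09 to 5.17 in WT arrays. Of these 9 genes 0 passed the limma threshold or an unadjusted p under 0.05. The part of other blood cells in the Ikzf1 signal was not tested.

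Bcl11a, the best known switching repressor, had nearly the same mean in DKO and WT. Its signals were 9.38, 8.67, 8.67 and 9.21 in DKO arrays, against 9.09, 8.998, 8.90 and 8.97 in WT arrays. The DKO arrays enclosed the WT arrays, with 2 above and 2 below all of them. The difference was -0.00 with a 95% interval of -0.31 to 0.30 (limma adjusted p = 0.995), which spans a level of 0.809 to 1.23 times that of WT. Klf3KO arrays had 8.92, 9.18 and 8.88, and Klf8gt arrays 9.03, 8.998, 9.20 and 8.92.

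Myb, the progenitor factor upstream of the repressors, had 8.10, 7.52, 7.69 and 7.47 in DKO arrays, against 7.55, 7.57, 7.36 and 7.66 in WT arrays. Replicate 1 was the highest of all 15 arrays and the other 3 DKO arrays overlapped with WT (0.16 ± 0.13, adjusted p = 0.572). The remaining 5 regulators gave differences between -0.09 and 0.08, with adjusted p from 0.588 to 0.934. Among them Chd4 ranged from 10.80 to 11.33 in DKO, against 10.90 to 11.07 in WT, and Dnmt1 from 10.72 to 10.96 in DKO, against 10.86 to 10.94 in WT. The nuclear receptor genes Nr2c1 (0.04 ± 0.14) and Nr2c2 (-0.03 ± 0.08) and the methyl-binding gene Mbd2 (0.05 ± 0.08) overlapped between DKO and WT as well.

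**Figure D2:**
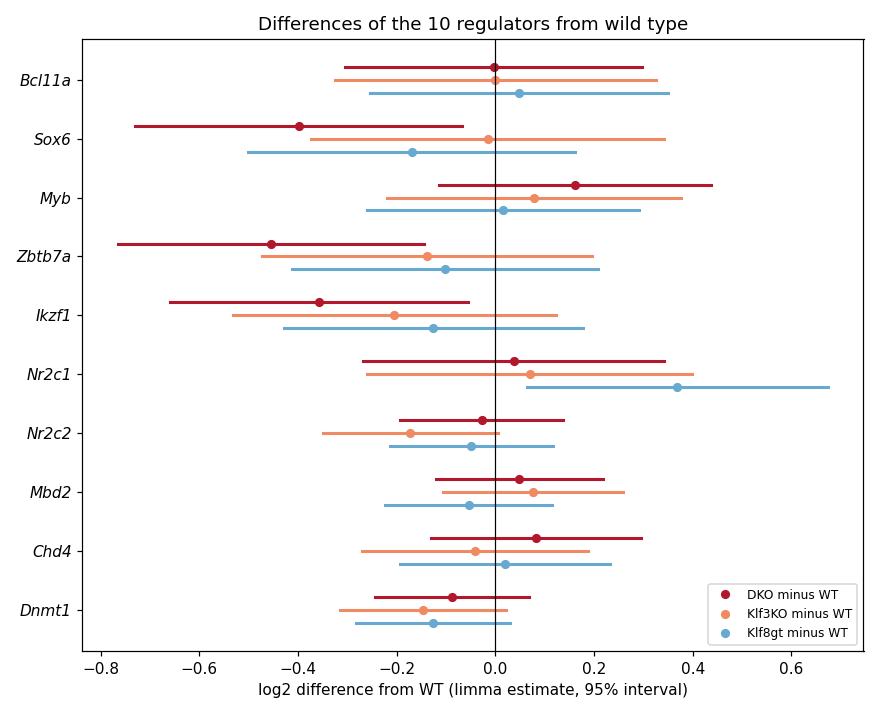
Differences of the 10 regulators from WT on the log2 scale (horizontal axis), with limma estimates as points and 95% intervals as lines, for DKO, Klf3KO and Klf8gt from top to bottom for each gene. The intervals of Zbtb7a, Sox6 and Ikzf1 in DKO lie below 0 and that of Nr2c1 in Klf8gt above 0, before any adjustment for the number of clusters tested.

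The DKO differences of Zbtb7a, Sox6 and Ikzf1 depended on which arrays and covariates entered. Without both arrays that stand apart, 3 of 10 regulators passed, against 9.65% of all clusters in that fit, with Sox6 at -0.55 (adjusted p = 0.0126), Zbtb7a at -0.56 (0.0221) and Ikzf1 at -0.45 (0.0473). Without DKO replicate 1 alone Sox6 (adjusted p = 0.025) and Zbtb7a (0.0327) passed, against 5.93% of all clusters, and without WT replicate 4 Zbtb7a passed (adjusted p = 0.0379; 3.59% of all clusters). Without DKO replicate 3 the Ikzf1 difference was -0.19 (adjusted p = 0.5). Among male embryos alone (2 DKO, 4 WT arrays) the differences were -0.07 for Sox6, -0.29 for Zbtb7a and -0.19 for Ikzf1, none past the threshold.

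Erythroid marker genes moved with these 3 regulators. The mean signal of 8 measured erythroid genes (surface, haem and transcription factor genes of red cells) was 12.10 to 12.55 in DKO arrays, against 12.47 to 12.65 in WT arrays. All 8 were lower in DKO with a median difference of -0.30, and 2, Hemgn (-0.50, adjusted p = 0.0234) and Klf1 (-0.41, 0.0487), passed the threshold, where 1.78% of all clusters fell. Genes of late erythroid maturation ranged from 11.28 to 12.27 in DKO and from 12.29 to 12.52 in WT arrays, with a median of -0.46, and 2 of 8 fell, Ypel4 (-1.28, adjusted p = 0.00628) and Trim58 (-0.98, 0.0367). Early erythroid and progenitor genes had means of 6.99 to 7.17 in DKO and 7.06 to 7.38 in WT arrays. Of these 8 genes 2 fell and 0 rose past the limma threshold, with a median of -0.06. With the erythroid signal as a covariate (added once the values were known), the differences became -0.05 for Zbtb7a (adjusted p = 0.927), -0.01 for Ikzf1 (0.993) and 0.09 for Sox6 (0.766). In such bulk samples fewer cells of a type or stage and less RNA per cell cannot be told apart, and what part maturation has in these differences was not tested beyond this covariate.

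Other cells of the liver moved too. Macrophage genes, which mark the erythroblast island macrophages that can stay bound to erythroid cells, had mean signals of 7.13 to 8.62 in DKO, against 8.86 to 9.14 in WT arrays, and 8 of 15 fell, against 1.78% of all clusters, with a median of -1.17. They were Cd5l (-2.54), Timd4 (-1.60), Marco (-1.54), Adgre1 (-1.38), Fcgr1 (-1.31), C1qa (-1.23), Vsig4 (-0.72) and Axl (-0.61). With the macrophage signal as a covariate Sox6 gave -0.78 (adjusted p = 0.0936) and no regulator passed. Hepatocyte genes ranged from 11.58 to 12.62 in DKO, 12.43 to 13.01 in Klf8gt and 12.16 to 12.50 in WT arrays, and 0 of 7 passed in DKO against WT by adjusted or unadjusted p in limma. With that signal as a covariate, likewise added later, Sox6 (-0.39, adjusted p = 0.0229) and Zbtb7a (-0.45, 0.018) passed (7.61% of all clusters did), and Ikzf1 did not (-0.35, 0.0738). Proliferation genes gave 0 of 13 past the limma threshold and 2 at an unadjusted p under 0.05, all 13 with negative differences and a median of -0.15.

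**Figure D3:**
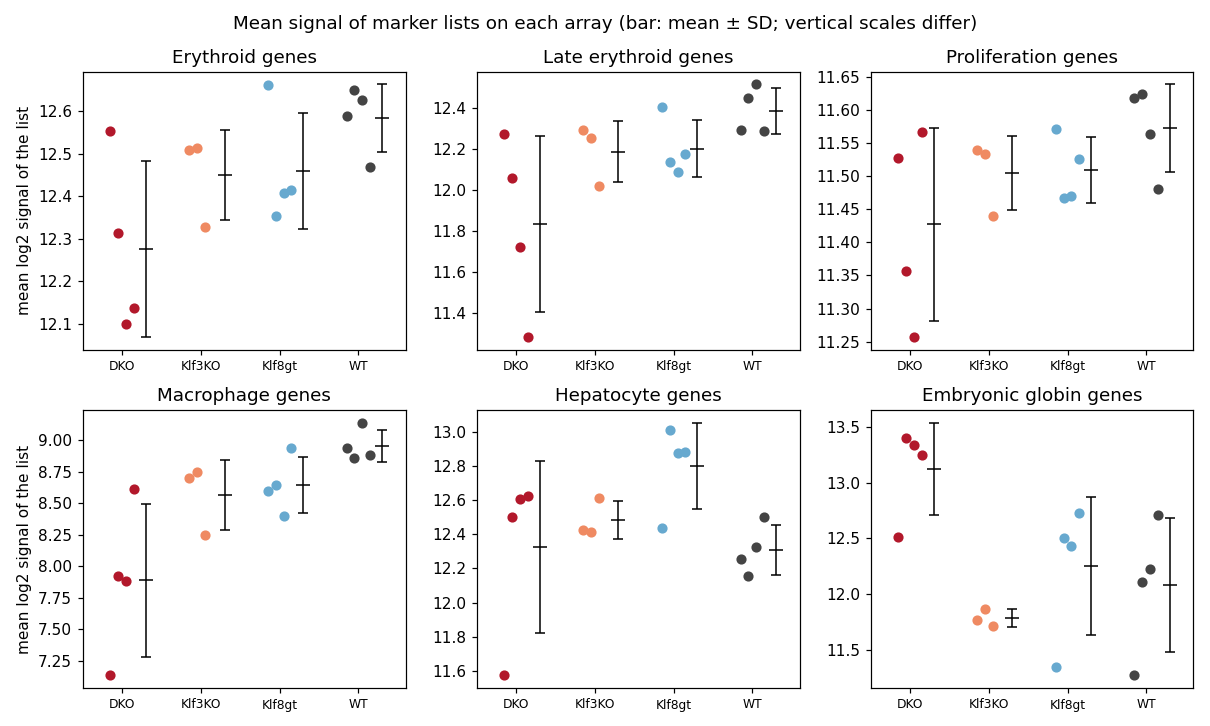
Mean log2 signal (vertical axis, scales differ between panels) of 5 marker lists and the embryonic globins on each array, in DKO, Klf3KO, Klf8gt and WT from left to right; points are arrays and bars the mean ± SD. The erythroid, late erythroid and macrophage means are lower in most DKO arrays than in WT, DKO replicate 1 is low in the hepatocyte list (11.58), and Klf8gt replicate 1 is low in the embryonic globins (11.35).

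**Figure D4:**
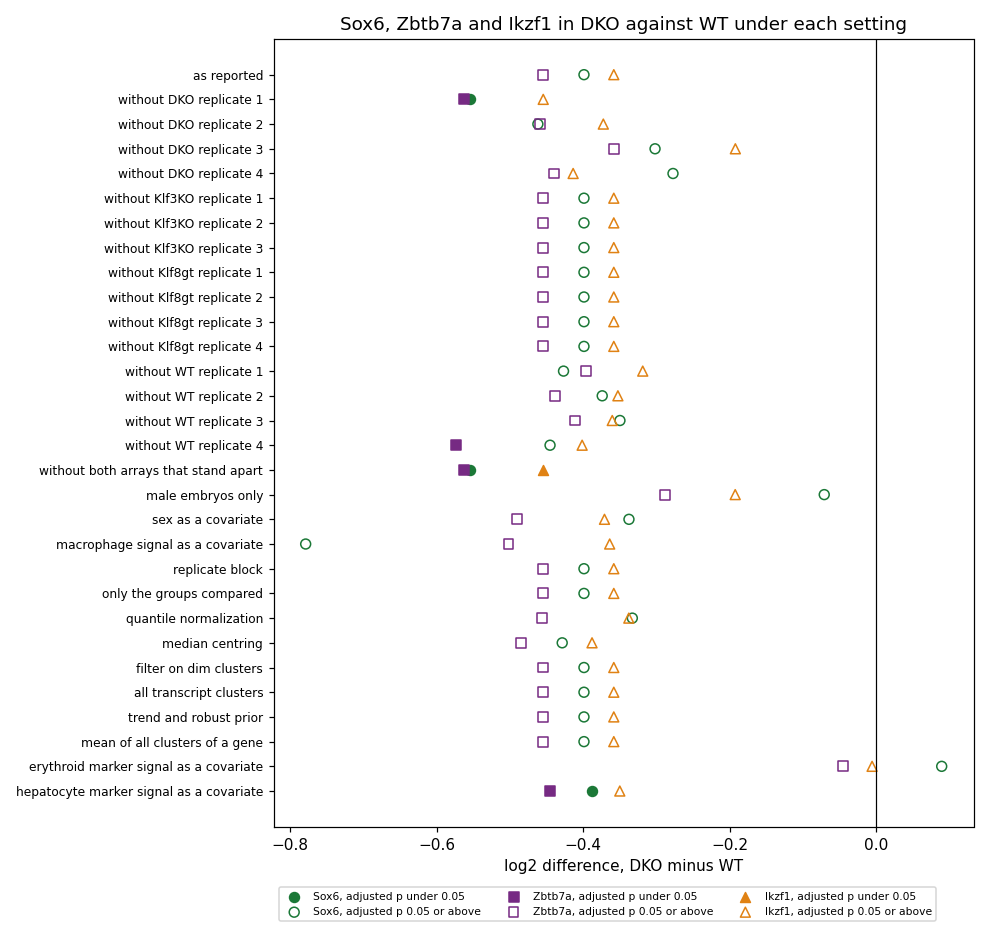
Log2 difference of Sox6, Zbtb7a and Ikzf1 in DKO against WT (horizontal axis) as reported and under each alternative setting (vertical axis); filled symbols have an adjusted p under 0.05. Leaving out single arrays keeps Sox6 between -0.55 and -0.28, whereas with the erythroid marker signal as a covariate the 3 genes lie between -0.05 and 0.09.

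In Klf3KO against WT cells, 0 of 10 regulators passed in limma, 0 at an unadjusted p under 0.05 and 0 under any of the alternatives tried, against 0.585% of all clusters by adjusted p and 7.83% unadjusted. The differences ran from -0.20 (Ikzf1) to 0.08 (Myb), with that of Bcl11a at 0.00 and that of Sox6 at -0.02. In 2 regulators the arrays did not overlap between the groups, both lower, while 5.7% of all clusters were lower without overlap. Dnmt1, the maintenance methyltransferase, had 10.81, 10.78 and 10.68 in Klf3KO, against 10.92, 10.94, 10.90 and 10.86 in WT arrays. Its difference was -0.15 ± 0.08 with a limma adjusted p of 0.694, and the exact permutation p was 0.0286, the smallest possible. Nr2c2, which encodes TR4, had 9.05, 9.05 and 8.91 in Klf3KO, against 9.27, 9.17, 9.18 and 9.09 in WT arrays (-0.17 ± 0.08, adjusted p = 0.654). Dnmt1 was 1.11-fold and Nr2c2 1.13-fold lower by these means. The embryonic globin Hbb-bh1 did not pass either (-0.60 ± 0.41, adjusted p = 0.764). In DKO against WT cells Hbb-bh1 was higher, by 1.33 ± 0.38 (limma adjusted p = 0.0698). Hba-x (1.36 ± 0.38, adjusted p = 0.0683) and Hbb-y (0.43 ± 0.18, 0.202) were also higher there, and none passed the threshold.

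In Klf8gt against WT cells, 0 of 10 regulators and 0% of all clusters passed. At an unadjusted p under 0.05, 1 regulator was higher, Nr2c1, against 7.16% of all clusters that were higher by that rule. Nr2c1, which encodes TR2, had 7.20, 7.66, 7.77 and 7.78 in Klf8gt arrays, against 7.37, 7.15, 7.28 and 7.14 in WT arrays. Klf8gt replicates 2, 3 and 4 stood above every array of the other groups and replicate 1 lay within the WT range. The difference was 0.37 ± 0.14, 1.29-fold (limma adjusted p = 0.309; exact permutation p = 0.0857). Without Klf8gt replicate 1 it was 0.50 (adjusted p = 0.035), in a fit that called 7.19% of all clusters, and without both arrays that stand apart its adjusted p was 0.00311, with 12.5% of all clusters called. Hepatocyte genes were also higher in Klf8gt than in WT, 6 of 7 at an unadjusted p under 0.05 and 0 by adjusted p in limma, with a median of 0.53. With the hepatocyte signal as a covariate the Nr2c1 difference was 0.08 (adjusted p = 0.997), and with the erythroid signal it was 0.21 (0.549). Its binding partner Nr2c2 was nearly constant in Klf8gt, at 9.11 to 9.14, against 9.09 to 9.27 in WT. The 9 regulators other than Nr2c1 gave differences between -0.17 (Sox6) and 0.05 (Bcl11a), with adjusted p from 0.453 (Dnmt1) to 0.965 (Myb).

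In DKO against Klf3KO cells 0 of 10 passed (0.047% of all clusters did), and Sox6 alone was lower at an unadjusted p under 0.05, against 7.58% of all clusters. Its difference was -0.38 ± 0.17 (adjusted p = 0.352), and among male embryos, with a single Klf3KO array, it was 0.09. With the hepatocyte covariate it passed (-0.49, adjusted p = 0.0323; 2.05% of all clusters), whereas with the erythroid covariate it was -0.11 (adjusted p = 0.579) and with the macrophage covariate -0.62 (0.273). The other 9 regulators gave differences between -0.32 (Zbtb7a) and 0.14 (Nr2c2), with adjusted p from 0.418 to 0.997. In DKO against Klf8gt cells 0 of 10 passed (3.35% of all clusters did), with Zbtb7a (-0.35 ± 0.15, adjusted p = 0.206) and Nr2c1 (-0.33 ± 0.14, 0.225) lower at an unadjusted p under 0.05, against 11.3% of all clusters. The Nr2c1 signals were 6.86, 7.27, 7.50 and 7.46 in DKO arrays, below Klf8gt replicates 2 to 4 and spanning replicate 1. Without Klf8gt replicate 1 Nr2c1 passed (-0.47, adjusted p = 0.0419; 7.44% of all clusters), and among male embryos it did so as well (-0.65, adjusted p = 0.0333; 6.88% of all clusters). With the erythroid covariate it was -0.56 (adjusted p = 0.00305), in a fit that called 13% of all clusters. Other settings brought the Nr2c1 difference nearer to 0. It was -0.05 with the hepatocyte covariate (adjusted p = 0.862), -0.08 with the macrophage covariate (0.94) and -0.19 without DKO replicate 1 (0.482). With the hepatocyte covariate Sox6 (-0.54, adjusted p = 0.0119) and Zbtb7a (-0.61, 0.0103) passed, against 5.8% of all clusters. Among male embryos Zbtb7a was -0.05 (adjusted p = 0.903) and Sox6 0.19 (0.422), and with the erythroid covariate Zbtb7a was -0.11 (0.543) and Sox6 0.06 (0.679), against -0.23 for Sox6 with no covariate. The 8 regulators other than Zbtb7a and Nr2c1 lay between -0.23 (Ikzf1) and 0.15 (Myb), with adjusted p from 0.403 to 0.915. The comparisons of DKO share the DKO arrays, and those against WT share the WT arrays.

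The interaction asks whether the joint difference departs from the sum of both single differences. Among the regulators 0 of 10 passed and 0 had an unadjusted p under 0.05, against 0.00427% and 14.4% of all clusters. Nr2c1 came nearest, at -0.40 ± 0.21 (adjusted p = 0.393), followed by Dnmt1 (0.19 ± 0.11, adjusted p = 0.442). For Zbtb7a the interaction was -0.21 with a 95% interval of -0.67 to 0.24, and for Sox6 it was -0.21 with an interval of -0.70 to 0.27. Both intervals include 0. The other 6 regulators gave interactions between -0.05 (Bcl11a) and 0.19 (Nr2c2), with adjusted p from 0.45 to 0.966.

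Within genotypes Hbb-bh1 varied more than 99.7% of all clusters, which allowed its relation to each regulator to be followed from array to array. Its signal was 10.85, 12.15, 12.37 and 11.99 in DKO arrays and 9.88, 10.07 and 9.79 in Klf3KO arrays. It was 9.78, 11.06, 10.99 and 11.43 in Klf8gt arrays and 9.64, 10.61, 10.54 and 11.25 in WT arrays. Within the Klf8gt, WT and DKO groups it thus spanned 1.64, 1.61 and 1.51 log2 units. Within genotypes the other embryonic globins went with it, Hba-x with a slope of 0.96 ± 0.10 and Hbb-y with 0.40 ± 0.06 log2 units per log2 unit of Hbb-bh1 (limma adjusted p = 0.00101 and 0.0129).

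Of the 10 regulators, 0 passed in the test of this within-genotype slope, against 5.83% of all clusters. At an unadjusted p under 0.05, 4 had a slope, against 24.7% of all clusters, 3 of them negative, against 11.2% of all clusters. The negative slopes were -0.24 ± 0.08 for Zbtb7a (adjusted p = 0.0858), -0.23 ± 0.08 for Ikzf1 (0.0957) and -0.22 ± 0.09 for Sox6 (0.153). The positive slope was 0.21 ± 0.08 for Nr2c1 (0.133). Bcl11a had -0.17 ± 0.09 (adjusted p = 0.242), Dnmt1 -0.10 ± 0.04 (0.203) and Chd4 0.11 ± 0.06 (0.284). Mbd2 had -0.09 ± 0.05 (0.308) and Nr2c2 -0.02 ± 0.05 (0.845), and Myb was closest to 0 (-0.01 ± 0.09). In all 8 slopes were negative and 2 positive, with a median of -0.09, against -0.02 over all clusters.

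The slopes rested on few arrays. Without both arrays that stand apart, the slope of Sox6 was 0.01 and that of Nr2c1 -0.13, each of the opposite sign. Without WT replicate 1, the array with the lowest Hbb-bh1 signal, Sox6 (-0.32, adjusted p = 0.0433) and Nr2c1 (0.33, 0.0178) passed, in a fit that called 11.3% of all clusters. In a fit with no genotype means Sox6 (-0.22, adjusted p = 0.0289) and Zbtb7a (-0.22, 0.0293) passed, against 5.01% of all clusters. Hepatocyte genes moved with Hbb-bh1 within genotypes, 4 of 7 with positive slopes past the threshold and a median of 0.45, where 4.42% of all clusters passed with positive and 1.41% with negative slopes. With the hepatocyte mean entered as a further term, the slopes of Sox6 (0.08) and Nr2c1 (-0.03) were again of the opposite sign, and those of Zbtb7a (-0.07, adjusted p = 0.91) and Ikzf1 (-0.12, 0.855) were smaller. All 8 erythroid genes had negative slopes, 2 past the threshold, and 14 of 15 macrophage genes positive ones, 3 past it. With the erythroid covariate the slopes were -0.04 for Zbtb7a, -0.08 for Ikzf1, 0.08 for Sox6 and 0.01 for Nr2c1, and 0 of these 4 passed (limma adjusted p from 0.736 to 0.982).

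Over all 15 arrays, where differences between genotypes enter as well, 10 correlations with Hbb-bh1 were computed. Sox6 had a Pearson r of -0.734 (permutation p = 0.00123) and a Spearman rho of -0.675 (permutation p = 0.00716). Zbtb7a had r = -0.734 (permutation p = 0.0021) and rho = -0.725 (p = 0.00318, permutation), and Ikzf1 r = -0.622 (permutation p = 0.00737) and rho = -0.575 (permutation p = 0.0273). Adjusted over the 10 regulators by Benjamini-Hochberg, the permutation p of r was 0.0105 for Sox6, 0.0105 for Zbtb7a and 0.0246 for Ikzf1. That of rho was 0.0358, 0.0318 and 0.0909 in the same order. Arrays were permuted across the genotypes, so a difference between genotype means can give a small p by itself. The share of all clusters with such correlations was not computed. In the limma slope fit with no genotype means, 5.01% of all clusters passed, as did Sox6 and Zbtb7a, while Ikzf1 did not (adjusted p = 0.091). Without DKO replicates 2 and 3, the arrays farthest from the median of Hbb-bh1, r was -0.684 for Sox6, -0.556 for Zbtb7a and -0.335 for Ikzf1. Over the 11 arrays other than DKO, r was -0.542, -0.357 and -0.304 for these genes in the same order. Within genotypes, after each array was set against its group mean, r was -0.569, -0.664 and -0.651 for these 3 genes. By that measure Dnmt1 had the r of largest size, at -0.749. Nr2c1 had 0.600, Mbd2 -0.566, Chd4 0.505 and Bcl11a -0.491, with smaller values for Nr2c2 (-0.139) and Myb (-0.029).

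The correlations were also computed by sex, with no test of the difference between the sexes. The male arrays hold all 4 WT arrays and the female arrays none, so that the sexes also differ in genotype. Among the 9 male arrays r was -0.303 for Sox6, -0.550 for Zbtb7a and -0.427 for Ikzf1, and among the 6 female arrays -0.958, -0.864 and -0.729. Without both arrays that stand apart, the within-genotype r of Sox6 was 0.0312. Chd4, the NuRD ATPase, went the other way, with r = 0.564 (permutation p = 0.0237, adjusted over the 10 regulators 0.0594). Chd4 had rho = 0.546 (permutation p = 0.0371, adjusted 0.0927). Its r was -0.137 among males and 0.923 among females, and 0.828 without DKO replicates 2 and 3. The remaining 6 regulators had r between -0.309 (Dnmt1) and 0.270 (Nr2c1), with permutation p from 0.259 to 0.557; for Bcl11a r was -0.307 and turned to 0.252 without DKO replicates 2 and 3.

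**Figure D5:**
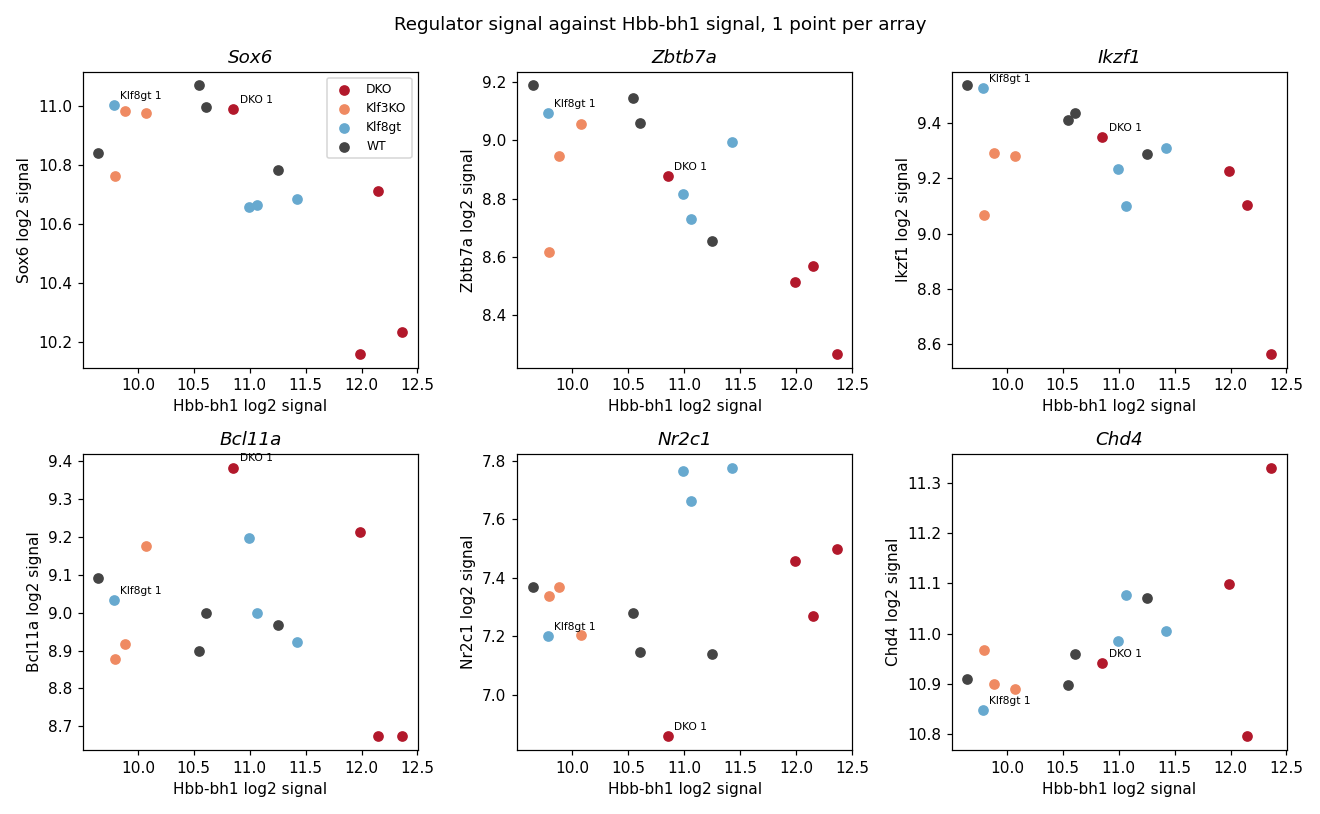
Log2 signal of 6 regulators (vertical axes) against that of Hbb-bh1 (horizontal axis), 1 point per array, coloured by genotype, with the 2 arrays that stand apart named. Sox6, Zbtb7a, Ikzf1, Bcl11a and Chd4 each have their lowest array among DKO replicates 2 to 4, where Hbb-bh1 is 11.99 or higher. Chd4 has its highest array there too, in DKO replicate 3, and Nr2c1 has its lowest in DKO replicate 1. Bcl11a and Nr2c1 show no single trend over the 15 arrays.

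Some regulators moved together from array to array, as a description over arrays that share RNA quality, cell make-up and normalization. Zbtb7a and Ikzf1 correlated with r = 0.868 over 15 arrays and 0.816 within genotypes, and Sox6 and Zbtb7a with 0.804 and 0.724. Chd4 ran against Sox6 (-0.753, and -0.750 within genotypes), Ikzf1 (-0.715) and Zbtb7a (-0.671). Bcl11a was nearest to Mbd2 (0.614, and 0.783 within genotypes) and not to its partner Sox6 (0.185). Among 11837 other clusters with 1 symbol and a signal above the array medians, the patterns most like Sox6 were those of Kdm7a (r = 0.978), Hectd4 (0.977) and Marchf2 (0.973). Those most like Bcl11a were Smg9 (0.824), Sh2b2 (0.813) and Slc26a2 (0.752), and those most like Myb were Tchp (0.871), Zfp692 (0.851) and Vps13d (0.843), all over 15 arrays and chosen for their likeness.

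Partners of the regulators changed in a few genes of DKO cells, where 1.52% of all clusters rose and 1.78% fell against WT. Of 13 NuRD subunits, Chd4 and Mbd2 included, 1 rose and 0 fell against WT. Mta3, a scaffold subunit of NuRD, had 10.57, 10.31, 10.04 and 10.02 in DKO arrays, against 9.69, 9.57, 9.61 and 9.59 in WT arrays, and no DKO array reached down to WT. The rise was 0.62 ± 0.11 (adjusted p = 0.00441), and it passed under 28 of 29 alternatives, missing with the macrophage covariate (adjusted p = 0.206). Averaged over all clusters of the gene it was 0.40 (adjusted p = 0.008). In Klf3KO arrays Mta3 had 10.20, 10.24 and 9.95 (0.51 ± 0.12 against WT, adjusted p = 0.083). Chd3, the paralog of Chd4 in NuRD (0.48 ± 0.13, adjusted p = 0.0603), and Mta1 (0.35 ± 0.10, 0.0689) were not past the threshold.

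Of 11 measured DNA methylation genes, Dnmt1 and Mbd2 included, 1 rose and 0 fell in DKO against WT. Tet1, a dioxygenase that oxidises 5-methylcytosine, had 7.71, 7.15, 7.30 and 7.09 in DKO arrays, against 6.20, 6.23, 6.22 and 6.51 in WT arrays, where it lay near the array medians. The rise was 1.02 ± 0.14 (adjusted p = 5.69e-04), and it missed under 1 of 29 alternatives, the macrophage covariate (adjusted p = 0.109). DKO was also above Klf8gt (0.70 ± 0.14, adjusted p = 0.0125). That call missed under 3 of 29 alternatives, among male embryos (adjusted p = 0.0542), with only the groups compared (0.103) and with the macrophage covariate (0.315). Klf3KO arrays had 6.94, 6.66 and 6.92 (0.55 ± 0.15 against WT, adjusted p = 0.197) and Klf8gt arrays 6.27, 6.75, 6.75 and 6.68 (0.32 ± 0.14, 0.346). Tet2 (0.46 ± 0.14, adjusted p = 0.102) and the glycosylase gene Mbd4 (-0.28 ± 0.08, 0.0815) were not past the threshold.

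Among 12 measured genes of the direct repeat complex of Nr2c1 and Nr2c2 and of other corepressors, 0 passed in DKO against WT in limma, with 1, the methyltransferase gene Ehmt1 (0.30 ± 0.13), at an unadjusted p under 0.05. The 13 measured paralogs of the regulators gave 0 as well, with 3 at an unadjusted p under 0.05, against 17.9% of all clusters, namely Ikzf3 (0.36 ± 0.10), Chd3 and Mybl2 (-0.27 ± 0.11). Of 14 measured genes that act upstream of the switch, Hmga2 (0.53 ± 0.13, adjusted p = 0.0426), a chromatin protein of fetal cells, and Nfix (0.28 ± 0.07, 0.0345), a nuclear factor I gene, rose, and Klf1, the erythroid CACCC activator, fell by 0.41 on the log2 scale. These 3 calls were near the threshold and were lost without any single array of 10 for Hmga2 (adjusted p up to 0.141), of 9 for Nfix (up to 0.105) and of 12 for Klf1 (up to 0.156). With the erythroid covariate Hmga2 was 0.14 (adjusted p = 0.606) and Klf1, itself 1 of the erythroid marker genes, -0.10 (0.653), while Nfix was 0.31 (0.0749). Among 16 erythroid factors that bind the globin loci, Ldb1, the bridging protein of the looping complex, rose by 0.51 ± 0.07 (adjusted p = 6.49e-04). Nfe2 (-0.61 ± 0.14, adjusted p = 0.0283) and the corepressor gene Cbfa2t3 (-0.76 ± 0.17, 0.0226) fell. The Nfe2 call was lost without DKO replicate 3 or WT replicate 1, 2 or 3 (adjusted p up to 0.0958), and the Cbfa2t3 call without DKO replicate 2 or WT replicate 2 or 3 (up to 0.0884). With the erythroid covariate Nfe2 was -0.20 (adjusted p = 0.45) and Cbfa2t3 -0.51 (0.253), and averaged over all its clusters Cbfa2t3 was -0.38 (0.158). Ldb1 was 0.54 with that covariate (adjusted p = 0.00522) and missed the threshold with the macrophage covariate (0.46, 0.0685).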

How the data were processed

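The deposited table holds log2 signals, 1 per transcript cluster and array; per the submitters' processing notes they were made with RMA and Partek (versions not given), and build and probe annotation files are not given in the sources used here. RMA background-corrects, quantile-normalizes and summarises probes, so that levels are relative to the whole array. Clusters were named from the platform annotation of 2016: 21789 had 1 symbol, 1621 several (adult globins among them, not named here) and 12146 none. The values were used as deposited. limma 3.58.1 (R 4.3.3) estimated 1 mean for each genotype from the 15 arrays together, with eBayes without a trend (4.27 prior degrees of freedom), over 23410 clusters with a symbol, two-sided, with Benjamini-Hochberg adjustment and a threshold of 0.05. The slope on Hbb-bh1 was fitted with genotype means, without the cluster of Hbb-bh1 (23409 clusters). Correlations were tested with 100000 random permutations and single differences with exact permutations. The procedure was tested on simulated data with independent noise for each cluster, so deviations shared by clusters of an array were not part of that test.

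The 10 regulators and the gene lists were chosen with earlier results of these data known. All 10 were described in every comparison, singly or by their range; genes of the regulator lists were named where past the threshold, or up to 3 of a list with the smallest p, and genes of like pattern by the 3 highest Pearson r for Bcl11a, Sox6 and Myb. Same-numbered DKO and Klf8gt arrays deviated together (4 pairs, r of 0.114 to 0.534), which rests on the data and not on the labels; other groups did not pair by number.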

Additional observations from a re-analysis of the deposited data

Results flagged for a closer look

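In 4 of 39 groups of 4 arrays, 1 array lay apart from the other 3 by Dixon's criterion, where chance gives about 5% of groups. All 4 were Klf8gt replicate 1. Its Sox6 signal was 11.003, above the nearest Klf8gt array at 10.68. Its Myb signal was 7.29, below the nearest at 7.63, and its Nr2c2 signal was 9.11, below the nearest at 9.13 in a group with a range of only 0.03 log2 units. The embryonic alpha-like globin Hba-x stood at 10.74 in the same array, below the nearest at 12.17. The lists of hepatocyte genes (12.43, against 12.87 to 13.01) and of megakaryocyte genes (9.27, against 10.28 to 10.84) were also lower in that array than in the other 3 Klf8gt arrays, while its erythroid genes were higher (12.66, against 12.35 to 12.41). The part of these differences in its Sox6, Myb and Nr2c2 signals was not tested.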

How the results depend on the processing

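Of 10 regulators, 0 passed in each of the 7 tests as reported, and under the alternatives 0 passed in Klf3KO against WT and in the interaction. In DKO against WT, leaving out single arrays gave 0 to 2, leaving out both arrays that stand apart 3, and the hepatocyte covariate 2. In Klf8gt against WT, leaving out single arrays gave 0 to 1 and leaving out both 1. In DKO against Klf3KO the hepatocyte covariate gave 1 (Sox6, -0.49, adjusted p = 0.0323). In DKO against Klf8gt, leaving out single arrays gave 0 to 1, male embryos alone 1, the erythroid covariate 1 (Nr2c1, -0.56, adjusted p = 0.00305) and the hepatocyte covariate 2 (Sox6, -0.54, and Zbtb7a, -0.61). For the slope, leaving out single arrays gave 0 to 2 and a fit with no genotype means 2 (Sox6, -0.22, and Zbtb7a, -0.22). Signs turned for Sox6 in DKO against WT with the erythroid covariate (0.0894), for Sox6 in DKO against Klf3KO among males (0.0906), and for the Sox6 slope without both arrays (0.013), with the erythroid (0.0846) and with the hepatocyte covariate (0.0843). They turned for the Nr2c1 slope without both arrays (-0.126) and with the hepatocyte covariate (-0.0336). The cause was not tested. The erythroid and hepatocyte covariates were chosen after seeing the data. The 59 other differences and slopes changed sign in 151 of 1713 values, and 1 of these values passed. With the replicate number as a block 0 regulators passed in any test; Zbtb7a in DKO against WT then had an adjusted p of 0.0656 and in DKO against Klf8gt, where the numbers pair the arrays, 0.143. Another normalization, a filter on dim clusters, all transcript clusters or another prior changed no call of a regulator. The interaction was not fitted from the compared groups alone, since it uses all 4. All 10 clusters lie above the array medians. The number of arrays limits the precision, and sex and the marker signals of maturation and of other cells differ between the genotypes.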

Other observations

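Among the partners of the regulators, genes of other roles had slopes on Hbb-bh1 within genotypes that passed the threshold, as 5.83% of all clusters did. Dnmt3a, a de novo DNA methyltransferase, had 0.32 ± 0.08 log2 units per log2 unit (limma adjusted p = 0.0343), and Tet2, a 5-methylcytosine dioxygenase, 0.28 ± 0.07 (0.0362), 2 of 11 measured DNA methylation genes. Nr2f2, which encodes the nuclear receptor COUP-TFII, had 0.38 ± 0.10 (adjusted p = 0.0378), and Igf2bp3, an RNA-binding protein of fetal cells, 0.29 ± 0.07 (0.0347). Klf1 had -0.20 ± 0.05 (adjusted p = 0.0348) and Lyl1, a basic helix-loop-helix factor related to TAL1, -0.31 ± 0.05 (0.0139). Apart from Lyl1, which passed in 23 of 31 alternatives, these slopes passed in 14 to 16 of 31, and all 6 were lost without DKO replicate 1 and without Klf8gt replicate 1, each left out alone, and among male embryos.

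Of 8 progenitor genes 2 passed, both with positive slopes, Cd34 (0.40 ± 0.09, adjusted p = 0.0257) and Meis1 (0.46 ± 0.11, 0.0326), as did 4 of 7 hepatocyte genes, Fgb (0.55), Apoa1 (0.46), Hnf4a (0.45) and Trf (0.40). The water channel gene Aqp3 went against Hbb-bh1 (-0.54 ± 0.10, adjusted p = 0.014). With the hepatocyte signal as a covariate all 6 slopes above missed the threshold (adjusted p from 0.615 to 0.947), with 0.03 for Igf2bp3, -0.09 for Klf1, 0.19 for Nr2f2, 0.21 for Dnmt3a, 0.19 for Tet2 and -0.22 for Lyl1. With the erythroid signal they missed it too (0.472 to 0.748). With the macrophage signal Lyl1 (-0.31, adjusted p = 0.0222) and Nr2f2 (0.43, 0.0425) passed and the other 4 did not.

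Ldb1 stood higher in DKO than in Klf8gt cells (0.61 ± 0.07, adjusted p = 1.51e-04), a call that held under all 29 alternatives tried, with 10.84, 10.87, 10.68 and 10.83 in DKO arrays, against 10.16, 10.19, 10.28 and 10.15 in Klf8gt arrays. Mta3 (0.54 ± 0.11, adjusted p = 0.0126) and Nfix (0.30 ± 0.07, 0.0276) were higher in DKO than in Klf8gt as well. Mta3 missed with the macrophage or hepatocyte covariate and in a fit of only the groups compared (adjusted p up to 0.267). Nfix was lost under 9 of 29 alternatives, among them without DKO replicate 1 and without Klf8gt replicate 2 or 4 (adjusted p up to 0.104). Its adjusted p was 0.258 with the macrophage covariate, 0.197 with only the groups compared and 0.131 among male embryos.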
